A study of Homo sapiens with 18 samples.

Results

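The 9 Kruppel-like factor genes KLF2, KLF3, KLF4, KLF6, KLF7, KLF10, KLF11, KLF13 and KLF16 were followed by their gene symbols through the RNA sequencing counts of a ferroptosis experiment in multiple myeloma cells. They are 9 of the 43735 genes in the count table and 9 of the 14281 genes with enough counts to be tested. MM1R and MM1S are sister plasma cell lines derived from the same myeloma, of which MM1R is resistant and MM1S sensitive to glucocorticoids. Cells of each line were left untreated, were given 5 µM RSL3 for 3 h, or were given 2 µM ferrostatin-1 (Fer-1) for 2 h before the same RSL3 treatment. RSL3 is an inhibitor of the lipid peroxide-reducing enzyme GPX4 and thereby an inducer of ferroptosis, whereas Fer-1 traps lipid radicals. Each of the 6 groups held 3 libraries, 1 for each of 3 cell passages (4, 6 and 7 of MM1R, and 16, 22 and 23 of MM1S), and every passage was used for all 3 treatments. Both are established lines grown in RPMI-1640 with serum, they stand for 1 tumor, and no group received Fer-1 alone.

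Kruppel-like factors are transcription factors with 3 C2H2 zinc fingers at the C terminus that bind GC boxes and CACCC boxes, and their N termini recruit different cofactors. KLF2, KLF4, KLF6 and KLF7 belong to the members that mostly activate transcription, KLF3 represses by binding CtBP, and KLF10, KLF11, KLF13 and KLF16 carry a motif that binds the SIN3 corepressor. Several of the genes are immediate early or stress-inducible genes with short-lived mRNAs. In lymphocytes, KLF2 is known for keeping resting cells quiescent and for homing, and in myeloma cells it has been linked to the demethylase KDM3A and the plasma cell factor IRF4.

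Library totals ran from 17635438 to 19368343 counts. The 8 plasma cell markers, among them SDC1, XBP1 and IRF4, summed to 4385 to 6247 CPM (counts scaled to the same library total) in every library, while the T cell, monocyte, erythroid and fibroblast markers CD3D, LYZ, HBA1 and DCN lay between 0 and 0.108 CPM. Of the 11 markers of those other cell types reported here, 3 were above 3 CPM in some library: CD3E at 3.26 to 11.5 CPM, HBB at 3.40 to 12.7 CPM and COL1A1 at up to 19.5 CPM. NR3C1, the glucocorticoid receptor gene, was at 13.8 to 22.3 CPM in 8 of the 9 MM1R libraries and at 50.2 CPM in the other one. 3 libraries stood apart. In MM1R Fer-1+RSL3 of passage 6, genes that separate the lines lay a median of 45.3% of the way from the MM1R to the MM1S level, over 11 genes chosen without that library, while the other 17 libraries lay −1.79 to 5.12% of the way to the other line. It goes against its label to that extent, it is called the library labelled MM1R Fer-1+RSL3 of passage 6, and values without it are given beside the KLF calls that it ended and beside several others. The RSL3 libraries of MM1R passage 7 and MM1S passage 16 had the highest KLF2 counts, and the latter also had the lowest normalization factor (0.864) and the highest NR3C1 level (392 CPM, against 89.9 to 163 CPM in the other MM1S libraries). COL1A1, a fibroblast collagen gene, was at 19.5 CPM in that MM1S library, at 3.93 CPM in the RSL3 library of MM1R passage 7 and at 0.452 to 3.17 CPM in the other 16, and its part in the KLF values of these libraries was not tested.

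The sequences just before the transcription start are shown for the pair that rose most in level under RSL3 (KLF2 and KLF6) and for the pair that fell (KLF13 and KLF16), so that the letters can be set beside the values that follow. RefSeq windows of 250 bases before to 50 after the start (build GRCh38.p14) were used for 7 of the 9 genes. There was 1 window each for KLF2, KLF4, KLF6, KLF13 and KLF16, 2 for KLF11 and 4 for KLF7. No window was used for KLF3 or KLF10, which does not show that RefSeq lacks one. The printed parts, which leave out all bases of the annotated gene, matched hg19 once each, at chr19:16435387-16435636 (plus strand) for KLF2, chr10:3827474-3827651 (minus strand) for KLF6, chr15:31618788-31619037 (plus strand) for KLF13 and chr19:1863579-1863828 (minus strand) for KLF16. For KLF6 this left out 122 bases, so its printed 178 bases end before the RefSeq start. Distances below are counted from the RefSeq start. Capitals mark the MEF2 box of KLF2, the E-box CACGTG of KLF6, and the CRE core (TGACG on either strand, part of the site bound by CREB and ATF factors) of KLF13 and KLF16.
KLF2: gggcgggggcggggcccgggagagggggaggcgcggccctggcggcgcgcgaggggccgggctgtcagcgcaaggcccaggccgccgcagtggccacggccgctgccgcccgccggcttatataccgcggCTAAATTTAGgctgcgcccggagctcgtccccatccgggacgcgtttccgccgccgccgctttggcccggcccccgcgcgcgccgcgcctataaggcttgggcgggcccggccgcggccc
KLF6: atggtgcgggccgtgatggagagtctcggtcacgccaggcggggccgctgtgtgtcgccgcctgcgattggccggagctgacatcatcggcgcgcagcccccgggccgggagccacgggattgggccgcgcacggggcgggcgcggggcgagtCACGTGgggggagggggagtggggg
KLF13: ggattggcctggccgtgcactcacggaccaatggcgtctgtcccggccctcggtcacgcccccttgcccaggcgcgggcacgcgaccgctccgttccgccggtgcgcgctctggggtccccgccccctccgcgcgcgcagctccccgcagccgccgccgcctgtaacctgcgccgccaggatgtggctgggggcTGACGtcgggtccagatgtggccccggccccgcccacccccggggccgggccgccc
KLF16: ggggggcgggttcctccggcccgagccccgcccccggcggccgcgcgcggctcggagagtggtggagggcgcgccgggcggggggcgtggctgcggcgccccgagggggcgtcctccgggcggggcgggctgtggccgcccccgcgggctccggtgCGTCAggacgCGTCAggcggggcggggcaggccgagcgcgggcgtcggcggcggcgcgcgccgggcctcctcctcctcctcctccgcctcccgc
Both strands were searched over the whole 300-base windows. The MEF2 box, to which MEF2 factors bind, began 120 bases before the start of KLF2 and was held by 2.99% of all 35116 windows. It was in none of the other 6 genes' windows. The E-box of KLF6 began 97 bases before the start and the motif was held by 7.26% of windows, and KLF4, KLF7 and KLF11 held 1 each as well. The CRE core began 56 bases before the start of KLF13 and 94 and 84 bases before that of KLF16. It was held by 24.6% of windows, also by that of KLF4 and 1 window of KLF11. The full CRE TGACGTCA was in that KLF11 window and in 1.85% of all windows. The GC box GGGCGG, the kind of site that KLF proteins bind, was held by 44.95% of all windows. It was in 1 of the 4 windows of KLF7 and in every window of the other 6 genes. There were 6 matches for KLF2, 7 for KLF16 and 7 in 1 window of KLF11. The bases of these windows were 80.7%, 86% and 75.3% G or C, against a median of 58.7% over all windows. The part of base content in the matches was not tested. The AP-1 site TGANTCA was in no window of the 7 genes and in 7.71% of all windows.

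In hg19 the genes lie at chr19:16435637-16439496, plus strand (KLF2), chr4:38665818-38703138, plus strand (KLF3), chr9:110247133-110252763, minus strand (KLF4), chr10:3818188-3827473, minus strand (KLF6), chr2:207938861-208038580, minus strand (KLF7), chr8:103661012-103667953, minus strand (KLF10), chr2:10182976-10194963, plus strand (KLF11), chr15:31619038-31727868, plus strand (KLF13) and chr19:1852398-1863578, minus strand (KLF16). KLF2, KLF4, KLF6 and KLF10 are compact genes that span 3.86 to 9.29 kb, whereas KLF7 and KLF13 span 99.7 and 109 kb. The AU-rich pentamer ATTTA, part of the elements that destabilize many early response mRNAs, occurred at 1.69 to 2.83 copies per kb in the 3′ UTR of 7 members. It occurred at 0.893 and 0.971 copies per kb in KLF13 and KLF16, and the median over 11384 tested genes was 1.86. The longer AU-rich nonamer TTATTTATT occurred once in the 3′ UTR of KLF16 and in that of none of the other 8, against 9.89% of those genes. Annotated pseudogenes exist for KLF2 (4), KLF3 (2), KLF4 (1) and KLF7 (1). KLF3, KLF4, KLF7, KLF11 and KLF16 overlap a gene on the opposite strand, and the sources used here do not say whether counting used strand. KLF7 also overlaps KLF7-IT1 and MIR2355, and KLF13 overlaps UBE2CP4, on the same strand, where counting by strand would not separate them. The values of all these genes are uncertain to that extent.

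Levels of different genes were compared per kb of exon. In untreated MM1S cells KLF6 stood at 30.1 ± 2.16 CPM per kb (SD, n = 3), KLF2 at 21.5 ± 7.99 and KLF16 at 19.2 ± 2.00, and the range of KLF2 overlapped those of KLF16 and KLF3. KLF3 (12.4 ± 0.856) and KLF10 (8.84 ± 1.11) followed, ahead of KLF13 (7.34 ± 0.161) and KLF11 (6.94 ± 1.73), and the range of KLF11 overlapped those of KLF13 and KLF10. KLF7 (2.17 ± 0.556) and KLF4 (0.477 ± 0.00935) were the lowest. In untreated MM1R the order began with KLF16 (26.5 ± 1.02 CPM per kb), whose range overlapped that of KLF6 (24.9 ± 3.42), and ended with the same pair, KLF7 (2.22 ± 0.425) and KLF4 (0.435 ± 0.0468). Under RSL3 the first place went to KLF2 in both lines, at 151 ± 151 CPM per kb in MM1R and 146 ± 143 in MM1S. These SDs are nearly as large as the means, and the ranges of KLF2 and KLF6 overlapped in every group except untreated MM1R and untreated MM1S.

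**Figure D1:**
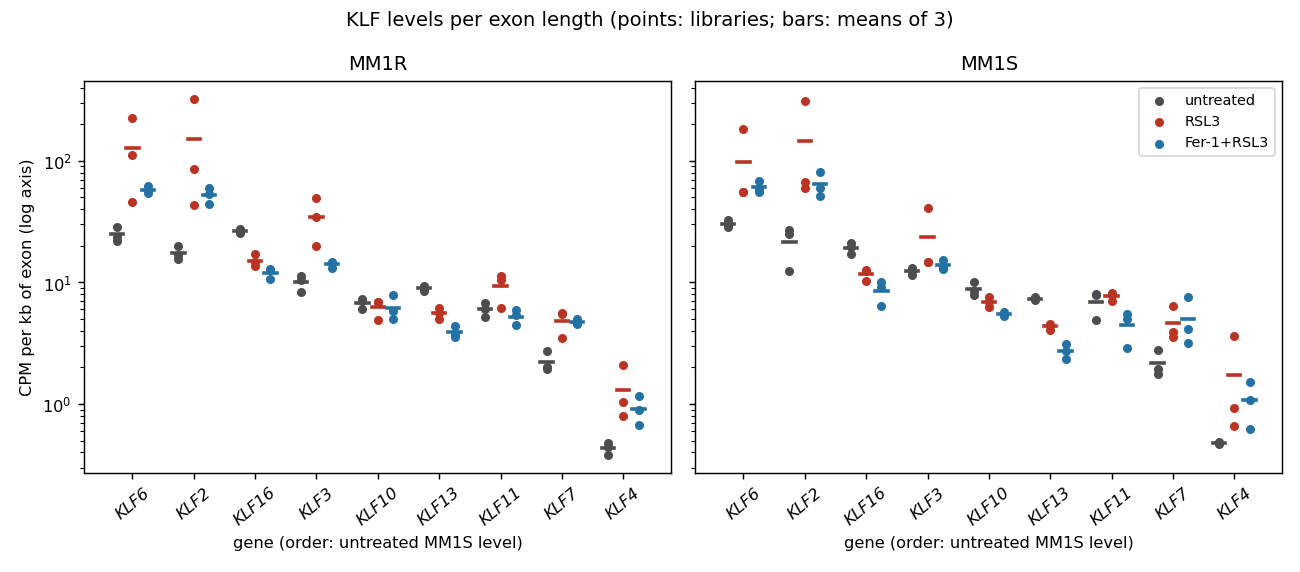
Levels of the 9 genes per kb of exon (CPM per kb, log axis) in MM1R and MM1S, with genes in the order of the untreated MM1S level. Points are libraries and short bars are means of 3. KLF4 lies at the bottom in both lines, KLF6 lies highest in untreated MM1S and KLF16 in untreated MM1R, and under RSL3 the KLF2 points spread over a wider range than those of KLF13 or KLF16.

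The first comparison asked what 3 h of RSL3 does to each line. In MM1R, 6 of the 9 KLF genes passed the test (edgeR quasi-likelihood test, FDR under 0.05 by Benjamini-Hochberg adjustment over all genes tested), against 3.36% of all genes. KLF2, KLF3, KLF6 and KLF7 rose, as 2% of all genes did, and KLF13 and KLF16 fell, as 1.36% did. In MM1S, 4 of the 9 passed, against 3.67% of all genes, with KLF2 and KLF6 rising (2.5% of all genes) and KLF13 and KLF16 falling (1.17%). Averaged over both lines, 7 of the 9 passed, against 15.5% of all genes, with KLF2, KLF3, KLF4, KLF6 and KLF7 rising (8.7%) and KLF13 and KLF16 falling (6.81%). These are levels relative to all RNA in a culture, in which fewer expressing cells and less RNA per cell cannot be told apart. The median log2 fold change of the 9 genes was 1.13 in MM1R and 0.93 in MM1S, beside medians of 0.00023 and 0.0022 over all genes tested. All 5 genes that rose over both lines are activators or the CtBP-binding KLF3, and both that fell belong to the SIN3-binding members, of which KLF10 and KLF11 did not pass. Those 5 are all the members outside the SIN3-binding ones, and the set was chosen with earlier results known. With the passage as a block and without the library labelled MM1R Fer-1+RSL3 of passage 6, KLF10 passed over both lines (FDR 0.0375). KLF9, a SIN3-binding gene outside the 9, rose in both lines. Of other genes outside the 9, KLF5 rose and KLF15 fell over both lines. The relation between class and direction was not tested. When the passage entered as a block, pairing its 3 treatments, 7 of the 9 passed in MM1R (13.1% of all genes) and 6 in MM1S (13.3%), adding KLF4 in both lines (FDR 0.0312 and 0.0275) and KLF7 in MM1S (FDR 0.00207).

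**Figure D2:**
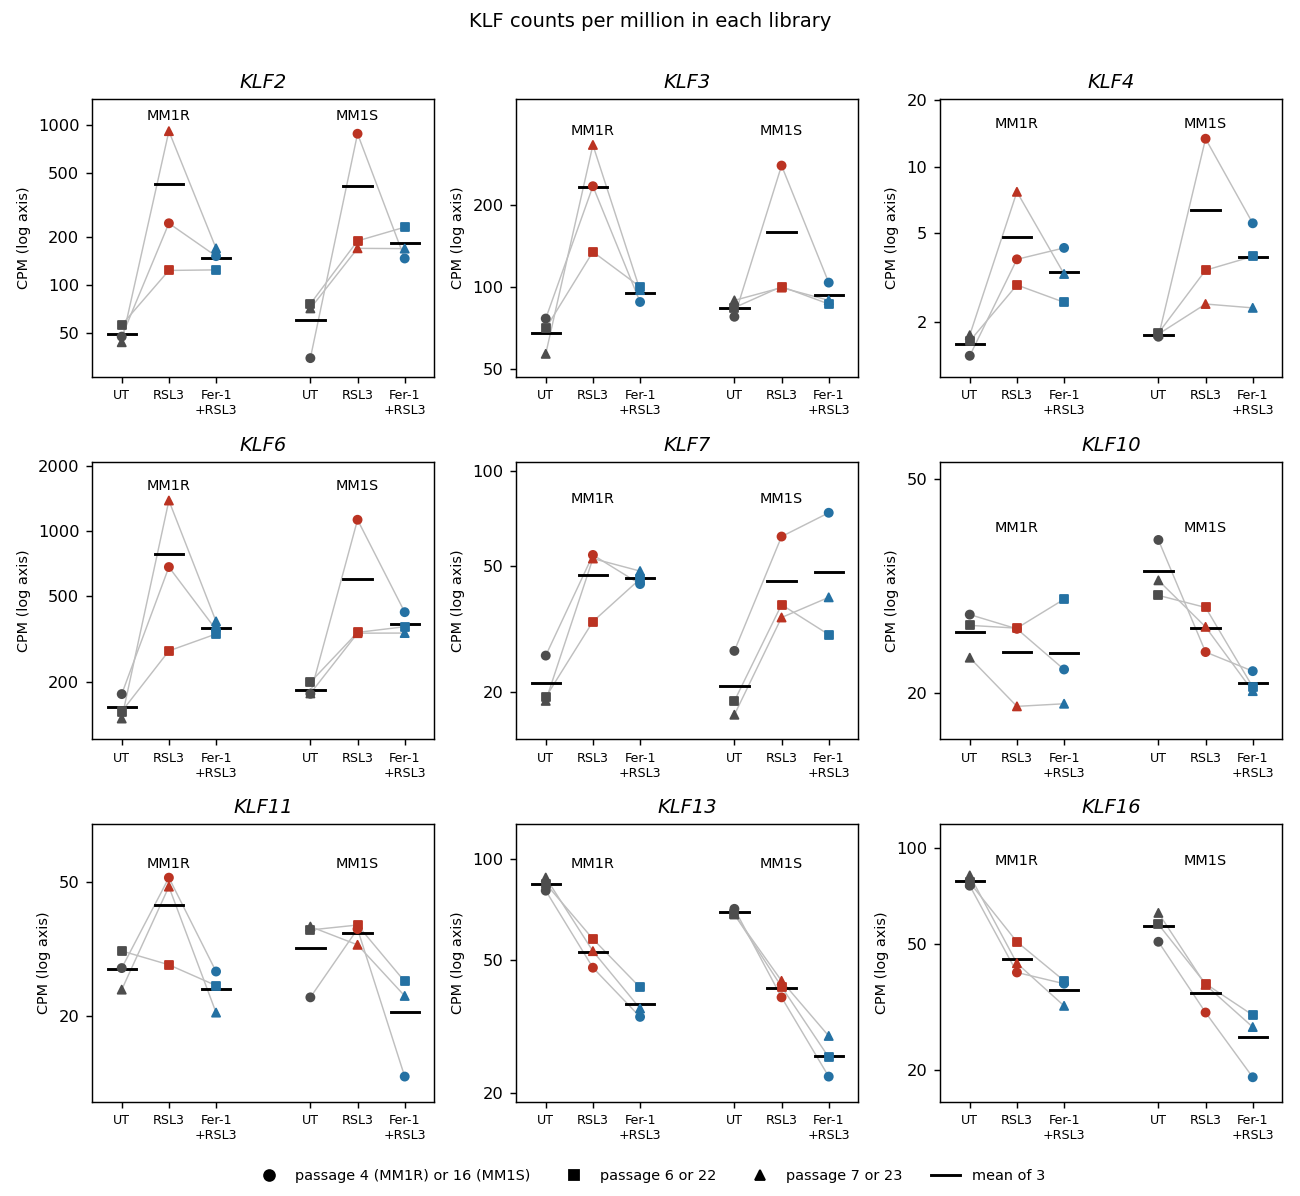
CPM (log axis) of each gene in all 18 libraries, untreated (UT, grey), RSL3 (red) and Fer-1+RSL3 (blue), in MM1R (left) and MM1S (right) of each panel. Symbols mark the passage, grey lines join the libraries of 1 passage and black bars are means of 3. KLF2 and KLF6 rise in every passage and KLF13 and KLF16 are highest untreated and lowest with Fer-1+RSL3 in every passage.

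KLF2, the quiescence factor of lymphocytes and a shear stress-induced gene of endothelium, had the largest fold change of the 9 in both lines. In MM1R its level was 47.4, 56.1 and 43.7 CPM in the untreated libraries of passages 4, 6 and 7 and 242, 123 and 913 CPM under RSL3. In MM1S it was 34.8, 76.01 and 71.2 CPM in the untreated libraries of passages 16, 22 and 23 and 879, 188 and 169 CPM under RSL3. All RSL3 libraries lay above all untreated ones within each line, as 13.5% of all genes did in MM1R and 12.6% in MM1S. In each line 1 passage was far higher than the others. The log2 fold change was 3.12 ± 0.67 (SE, FDR 0.0179) in MM1R, or 8.67-fold, and 2.76 ± 0.66 (SE, FDR 0.0280) in MM1S, or 6.79-fold. Within passages the difference in log2 CPM was 2.35, 1.13 and 4.38 in MM1R and 4.65, 1.31 and 1.25 in MM1S. Without the libraries of MM1R passage 7 and MM1S passage 16, an alternative chosen after the values were seen, the rise was smaller and still passed, at 1.81 (FDR 0.00198) in MM1R and 1.27 (FDR 0.0295) in MM1S. The call ended without the RSL3 library of passage 16 or any 1 untreated library in MM1S, and without the RSL3 library of passage 7 or any 1 untreated library in MM1R (highest FDR 0.201 in MM1S and 0.0942 in MM1R).

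KLF4, one of the pluripotency factors and the closest relative of KLF2 in this set, was by far the least abundant member, with 27 to 203 counts per library. Its untreated levels were 1.40, 1.63 and 1.74 CPM in MM1R and 1.71, 1.78 and 1.76 CPM in MM1S. Under RSL3 they were 3.82, 2.92 and 7.69 CPM and 13.3, 3.41 and 2.40 CPM. The RSL3 libraries lay above the untreated ones in both lines without overlap, as 13.5% of all genes did in MM1R and 12.6% in MM1S. Its log2 fold change was 1.59 ± 0.54 (SE, FDR 0.118) in MM1R and 1.85 ± 0.53 (SE, FDR 0.0613) in MM1S, neither of which passed, while the mean of both lines passed, at 1.72 ± 0.38 (SE, FDR 0.00628). Without the libraries of MM1R passage 7 and MM1S passage 16 it was 1.14 in MM1R, 0.71 in MM1S and 0.93 (FDR 0.0352) over both, and without the RSL3 library of MM1S passage 16 alone the MM1S value was 0.74.

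KLF6 and KLF7 are close relatives, KLF6 a widely expressed gene lost or inactivated in several tumors and KLF7 a factor known from neurons. KLF6 was measured at 176, 146 and 136 CPM in untreated MM1R and 684, 279.6 and 1390.1 CPM under RSL3. In MM1S it went from 177, 200.1 and 177 CPM to 1132, 340.4 and 338 CPM. As with KLF2, passages 7 of MM1R and 16 of MM1S gave the highest values. No RSL3 library overlapped the untreated ones, and 13.5% of all genes were higher without overlap in MM1R and 12.6% in MM1S. KLF6 gave log2 fold changes of 2.36 ± 0.47 (SE, FDR 0.0123) in MM1R and 1.71 ± 0.46 (SE, FDR 0.0487) in MM1S. The MM1S call lay next to the threshold: it held in 4 of 18 fits that each left out 1 library, and without the 2 passages it was 0.84 (FDR 0.219), against 1.57 (FDR 0.00699) in MM1R. Without the library labelled MM1R Fer-1+RSL3 of passage 6 the FDR in MM1S was 0.0606. The MM1R call ended without the RSL3 library of passage 7 or any 1 untreated MM1R library (highest FDR 0.0615).
KLF7 was higher under RSL3 in every passage. Its levels were 26.03, 19.2 and 18.7 CPM in untreated MM1R and 54.2, 33.4 and 52.8 CPM under RSL3, and 26.9, 18.7 and 16.9 CPM and 61.98, 37.7 and 34.4 CPM in MM1S. The passage differences in log2 CPM were 1.05, 0.79 and 1.49 in MM1R and 1.20, 1.01 and 1.02 in MM1S. On the log2 scale KLF7 rose by 1.13 ± 0.30 (SE, FDR 0.0476) in MM1R and by 1.12 ± 0.21 (SE, FDR 0.00236) over both lines, with 1.10 ± 0.30 (SE, FDR 0.0515) in MM1S. In MM1R the call held in 6 of 18 fits that each left out 1 library, with FDR 0.0609 without the library labelled MM1R Fer-1+RSL3 of passage 6, and the mean over both lines passed in all 18.

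KLF3, the CtBP-dependent repressor that opposes KLF1 in red cell precursors, rose under RSL3 in MM1R and did not pass in MM1S. In MM1R it rose from 76.8, 70.6 and 57.00 CPM to 235, 135 and 333 CPM. In MM1S it was at 77.97, 84.2 and 89.5 CPM untreated and 279, 101 and 99.7 CPM under RSL3, so that passages 22 and 23 lay just above the untreated range while passage 16 lay far above it. The log2 fold change was 1.78 ± 0.34 (SE, FDR 0.0102) in MM1R and 0.93 ± 0.33 (SE, FDR 0.131) in MM1S. The difference between the lines was 0.85 on the log2 scale (95% interval −0.13 to 1.83, FDR 1.000) and did not pass. Without the untreated library of MM1R passage 7 the FDR in MM1R was 0.0534.

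KLF13 and KLF16, SIN3-binding members of which KLF13 is known as an activator of CCL5 in T cells, moved the other way and with little spread. KLF13 was at 80.4, 84.5 and 88.05 CPM in untreated MM1R and at 47.3, 57.7 and 53.03 CPM under RSL3. In MM1S it was at 70.97, 68.4 and 68.3 CPM and 38.6, 41.5 and 43.2 CPM. The groups did not overlap in either line, and 12.3% of all genes were lower without overlap in MM1R and in MM1S alike. The log2 fold change was −0.68 ± 0.11 (SE, FDR 0.00536) in MM1R and −0.75 ± 0.11 (SE, FDR 0.00341) in MM1S. KLF16 was at 76.2, 77.9 and 82.1 CPM in untreated MM1R and at 40.5, 50.6 and 43.3 CPM under RSL3. In MM1S it was at 50.7, 57.5 and 62.5 CPM and 30.3, 37.3 and 37.03 CPM. These groups did not overlap either (beside the same 12.3% of all genes), and the log2 fold change was −0.81 ± 0.15 (SE, FDR 0.00923) in MM1R and −0.70 ± 0.15 (SE, FDR 0.0178) in MM1S. Across passages the KLF13 difference ran from −0.55 in MM1R passage 6 to −0.88 in MM1S passage 16. Without the libraries of MM1R passage 7 and MM1S passage 16 the values were −0.66 (FDR 0.0136) and −0.69 (FDR 0.0271) for KLF13 and −0.76 (FDR 0.00408) and −0.70 (FDR 0.0170) for KLF16. KLF13 passed in both lines in all 18 fits that each left out 1 library, and KLF16 lost its call without the RSL3 library of passage 4 in MM1R (FDR 0.0586) and without that of passage 16 or the untreated libraries of passages 22 or 23 in MM1S (highest FDR 0.0869).

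KLF10 and KLF11 were named TGF-beta-inducible early genes 1 and 2 and are known as growth-restraining repressors. Neither passed the test for RSL3 in either line. KLF10 was at 28.01, 26.7 and 23.3 CPM in untreated MM1R and 26.3, 26.4 and 18.9 CPM under RSL3, and at 38.5, 30.4 and 32.4 CPM and 23.9, 28.9 and 26.6 CPM in MM1S, where the groups did not overlap (12.3% of all genes were lower without overlap, in MM1R and in MM1S alike). Its log2 fold change was −0.12 ± 0.16 (SE, FDR 0.767) in MM1R and −0.35 ± 0.16 (SE, FDR 0.242) in MM1S. KLF11 was at 27.7, 31.2 and 23.9 CPM in untreated MM1R and 51.6, 28.4 and 48.5 CPM under RSL3, with passage 6 inside the untreated range. In MM1S it was at 22.7, 36.05 and 36.9 CPM and 36.3, 37.3 and 32.5 CPM, and these groups overlapped. KLF11 had log2 fold changes of 0.63 ± 0.25 (SE, FDR 0.174) and 0.15 ± 0.24 (SE, FDR 0.795), with a 95% interval in MM1R of 0.11 to 1.15.

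**Figure D3:**
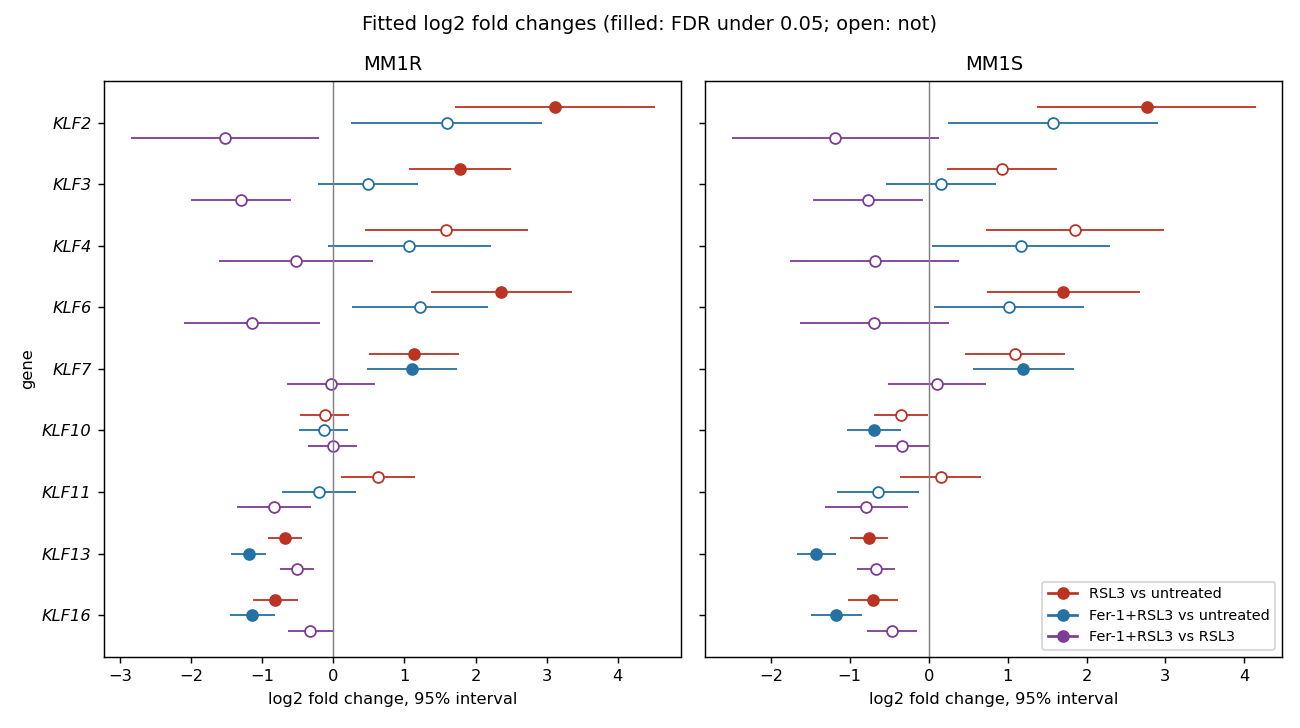
Fitted log2 fold changes with 95% intervals for the 9 genes in MM1R and MM1S, for RSL3 against untreated (red), Fer-1+RSL3 against untreated (blue) and Fer-1+RSL3 against RSL3 (purple). Filled points passed at FDR under 0.05. The intervals of KLF13 and KLF16 are narrow and lie below 0 in all 3 comparisons, and those of KLF2 are the widest. Each gene has 1 estimate of the spread over all 18 libraries, so an interval is not the spread of only the groups compared.

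The second comparison asked how Fer-1 before RSL3 changes the response. In neither line did any of the 14281 genes pass the main test (0% in MM1R and 0% in MM1S), although 881 and 821 genes had an unadjusted p under 0.05, 6.17% and 5.75% of all, and 6 and 4 of the 9 KLF genes. DESeq2 passed 38 genes in MM1R and 6 in MM1S, of which 2 and 1 are KLF genes. Averaged over both lines, 17 genes passed, or 0.119%, and KLF13 had the smallest p of all genes tested.
KLF13 was lower still with Fer-1+RSL3 than with RSL3 alone. Its level was 33.7, 41.3 and 35.7 CPM in MM1R and 22.4, 25.5 and 29.6 CPM in MM1S, below every RSL3 library of the same line, as 6.44% of all genes were in MM1R and 4.17% in MM1S. The log2 fold change against RSL3 was −0.59 ± 0.081 (SE, FDR 0.0150) over both lines, −0.51 in MM1R and −0.67 in MM1S, and the passage differences were −0.49, −0.48 and −0.57 and −0.78, −0.70 and −0.55. With the passage as a block it passed in MM1R (FDR 0.0442, with 0.175% of all genes) and in MM1S (FDR 0.0165, with 0.056%) as well, and 2.37% of all genes passed over both lines. Without the library labelled MM1R Fer-1+RSL3 of passage 6 the value over both lines was −0.64 (FDR 0.0197), and the block no longer passed it in MM1R. Leaving out the Fer-1+RSL3 library of MM1R passage 7 took the FDR over both lines to 0.0668.
KLF16 followed the same order with smaller steps. It was at 37.4, 38.2 and 31.8 CPM in MM1R and 18.9, 29.7 and 27.3 CPM in MM1S, below all RSL3 libraries in each line, as the same 6.44% and 4.17% of all genes were. Over both lines its log2 fold change against RSL3 was −0.39 ± 0.11 (SE, FDR 0.138), which passed with the passage as a block (FDR 0.0236) and not when the library labelled MM1R Fer-1+RSL3 of passage 6 was left out as well (FDR 0.0532).
KLF11, which had not passed for RSL3, was at 27.1, 24.6 and 20.4 CPM in MM1R and 13.2, 25.3 and 22.9 CPM in MM1S with Fer-1+RSL3. All of these lay below the RSL3 libraries of their line (6.44% of all genes in MM1R and 4.17% in MM1S), and below or within the untreated range. For KLF11 the log2 fold change against RSL3 over both lines was −0.81 ± 0.17 (SE, FDR 0.0655), with FDR 0.0231 under the block and 0.0389 under the block without the library labelled MM1R Fer-1+RSL3 of passage 6.

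Among the genes that rose under RSL3, the difference between Fer-1+RSL3 and RSL3 varied from passage to passage. With 1 library per treatment in each passage, a varying effect of Fer-1 and a varying RSL3 library cannot be told apart. KLF2 with Fer-1+RSL3 was at 151, 124 and 169 CPM in MM1R and 146, 229 and 168 CPM in MM1S, a much narrower range than under RSL3 alone. The difference from RSL3 in log2 CPM was −0.68, 0.011 and −2.43 in MM1R and −2.59, 0.28 and −0.0059 in MM1S, so that it was negative where RSL3 alone had given the highest level and within 0.28 of 0 in the 3 passages with the smallest rise. The same RSL3 value enters both the rise and this difference, and the relation between them was not tested. The fitted log2 fold change was −1.52 ± 0.63 (SE, FDR 0.740) in MM1R and −1.18 ± 0.62 (SE, FDR 0.875) in MM1S, and without the libraries of MM1R passage 7 and MM1S passage 16 it was −0.41 and 0.17. Without the library labelled MM1R Fer-1+RSL3 of passage 6 it was −1.41 in MM1R.
KLF6 gave passage differences of −0.96, 0.26 and −1.86 in MM1R and −1.42, 0.087 and 0.0015 in MM1S, with levels of 351, 335 and 383 CPM and 422, 362 and 338 CPM. Its fitted log2 fold changes of −1.14 ± 0.45 (SE, FDR 0.735) and −0.69 ± 0.45 (SE, FDR 0.901) did not pass, and without MM1R passage 7 and MM1S passage 16 they were −0.49 and 0.056. KLF4 was at 4.30, 2.44 and 3.28 CPM and 5.55, 3.94 and 2.31 CPM, and its log2 fold change was −0.52 in MM1R and −0.69 in MM1S, or 0.0014 and 0.11 without those 2 passages. Without the library labelled MM1R Fer-1+RSL3 of passage 6 the MM1R values were −1.10 for KLF6 and −0.34 for KLF4.
KLF3 was lower with Fer-1+RSL3 than with RSL3 in every passage. The differences in log2 CPM were −1.41, −0.43 and −1.77 in MM1R and −1.42, −0.21 and −0.15 in MM1S. It was at 88.3, 100.4 and 97.6 CPM in MM1R, below all 3 RSL3 libraries as 6.44% of all genes were, and at 104, 86.9 and 89.6 CPM in MM1S, where it overlapped RSL3. Neither line passed, at −1.29 (FDR 0.429) in MM1R and −0.77 (FDR 0.845) in MM1S. Without MM1R passage 7 and MM1S passage 16 the log2 fold change was −0.97 in MM1R, −0.17 in MM1S and −0.57 (FDR 0.146) over both lines. The log2 fold change against RSL3 over both lines was −1.03 ± 0.23 (SE, FDR 0.0774), with FDR 0.0437 under the block and 0.0625 when the library labelled MM1R Fer-1+RSL3 of passage 6 was also left out.
KLF7 showed no detectable difference. Its levels of 43.8, 45.5 and 48.2 CPM in MM1R and 73.7, 30.3 and 39.8 CPM in MM1S overlapped those under RSL3, and the log2 fold change over both lines was 0.037 with a 95% interval of −0.40 to 0.48. KLF10 was at 22.1, 29.9 and 19.1 CPM in MM1R, overlapping RSL3, and at 21.99, 20.6 and 20.2 CPM in MM1S, below RSL3 as 4.17% of all genes were. Its log2 fold change in MM1S was −0.34 ± 0.16 (SE, FDR 0.870). In MM1R it was −0.010, or −0.21 without the library labelled passage 6.

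**Figure D4:**
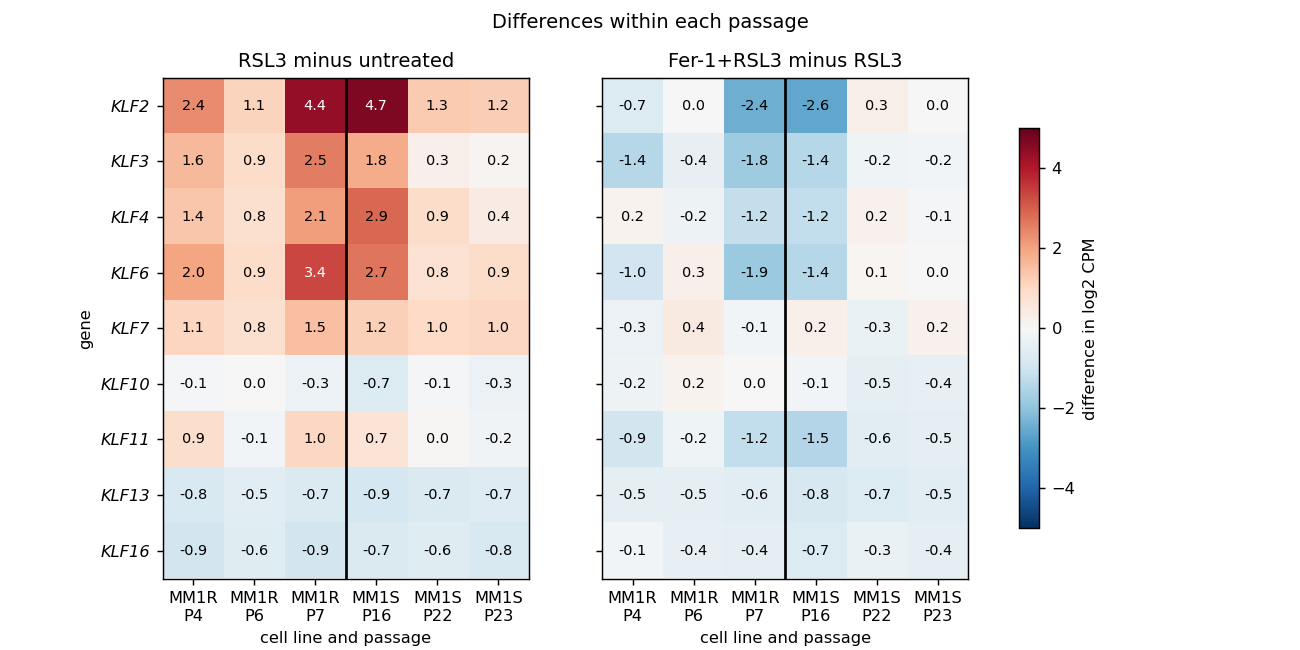
Differences in log2 CPM within each passage (P) of MM1R and MM1S, for RSL3 minus untreated (left) and Fer-1+RSL3 minus RSL3 (right), with red for higher, blue for lower and the value printed in each cell. KLF13 and KLF16 are negative in all 6 passages of both panels, while KLF2 is positive in all 6 on the left (1.13 to 4.65) and most negative on the right in MM1R passage 7 and MM1S passage 16.

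With Fer-1+RSL3 set against untreated cells, 3 of the 9 KLF genes passed in MM1R (9.22% of all genes) and 4 in MM1S (4.61%). KLF7 rose by 1.10 ± 0.30 (SE, FDR 0.0301) in MM1R and 1.20 ± 0.30 (SE, FDR 0.0296) in MM1S on the log2 scale. KLF13 differed by −1.19 ± 0.11 (SE, FDR 4.88e-05) and −1.42 ± 0.12 (SE, FDR 8.49e-06), and in MM1S its p was the smallest of all genes tested. KLF16 differed by −1.14 ± 0.15 (SE, FDR 0.000518) in MM1R and −1.17 ± 0.15 (SE, FDR 0.000487) in MM1S. KLF10 fell in MM1S, at −0.69 ± 0.16 (SE, FDR 0.0226), and was −0.13 in MM1R (95% interval −0.48 to 0.21), or −0.34 without the library labelled MM1R Fer-1+RSL3 of passage 6. KLF2 and KLF6 lay above every untreated library of their line in all Fer-1+RSL3 libraries. On the log2 scale KLF2 was 1.59 ± 0.63 (SE, FDR 0.130) and 1.58 ± 0.63 (SE, FDR 0.174), and KLF6 was 1.22 ± 0.45 (SE, FDR 0.104) and 1.02 ± 0.45 (SE, FDR 0.229), none of which passed. These SEs rest on 1 estimate of the spread per gene over all 18 libraries, so the RSL3 libraries enter them too. Without MM1R passage 7 and MM1S passage 16 KLF2 passed in both lines, at 1.40 (FDR 0.00477) and 1.44 (FDR 0.00628), and KLF6 in MM1R, at 1.08 (FDR 0.0261). With the passage as a block KLF6 passed in MM1R (FDR 0.0467), and not when the library labelled MM1R Fer-1+RSL3 of passage 6 was left out as well (FDR 0.246). Without that library and with no block KLF2 was 1.70 in MM1R. KLF3 was above every untreated library in MM1R and overlapped them in MM1S, with log2 fold changes of 0.49 (95% interval −0.21 to 1.18) and 0.16 (−0.54 to 0.85). The share of all genes without overlap is not given for this comparison, so the positions of KLF2, KLF6 and KLF3 are descriptions only. The KLF7 call held in 13 of 18 fits that each left out 1 library in MM1R and in 15 of 18 in MM1S, with a highest FDR of 0.172 in MM1S, and the KLF10 call in MM1S held in 13 of 18, with a highest FDR of 0.105. In MM1R the KLF7 call ended without any 1 of the Fer-1+RSL3 libraries (FDR 0.0745 without the one labelled passage 6) or without the untreated library of passage 6 or 7. In MM1S it ended without the Fer-1+RSL3 library of passage 16 or the untreated library of passage 22 or 23, and the KLF10 call without any 1 Fer-1+RSL3 library or the untreated library of passage 16 or 23. Without the library labelled MM1R Fer-1+RSL3 of passage 6 KLF13 was −1.28 (FDR 0.00017) and KLF16 −1.19 (FDR 0.00227). KLF4 was 1.07 in MM1R and 1.17 in MM1S, and KLF11 was −0.20 and −0.64, none of which passed. The comparisons with RSL3 and with untreated cells share the Fer-1+RSL3 libraries, and both comparisons with untreated cells share those controls, so these values are not independent of each other.

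Between the untreated lines none of the 9 KLF genes passed, against 10.5% of all genes, although 3 had an unadjusted p under 0.05 (24.8% of all genes) and DESeq2 passed 1. KLF16 was 0.47 ± 0.15 (SE, FDR 0.0536) in MM1R relative to MM1S, with 76.2 to 82.1 CPM in MM1R and 50.7 to 62.5 CPM in MM1S. KLF13 was 0.28 ± 0.11 (SE, FDR 0.121) and KLF10 was −0.38 ± 0.16 (SE, FDR 0.159). With the passage block these 3 passed (FDR 0.00460, 0.0327 and 0.0395, as 24.1% of all genes did), but no passage is shared between the lines, so that the block pairs nothing in this comparison and the line and the passage cannot be told apart.
A difference between the lines in the response to RSL3 passed the edgeR test for no KLF gene and for none of the 14281 genes (0%). An unadjusted p under 0.05 was found for 222 genes (1.55%), no KLF gene among them, and DESeq2 passed 0. The intervals leave room for differences: on the log2 scale that of KLF2 ran from −1.49 to 2.20, that of KLF6 from −0.68 to 1.99, and those of KLF13 and KLF16 from −0.26 to 0.41 and −0.55 to 0.34.

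The rest of the family and the partners of these factors were read from lists. Of 9 other KLF genes, 6 were tested, of which 3 passed over both lines against 15.5% of all genes, and KLF14, KLF17 and KLF18 had at most 2 counts in any library. KLF9, a SIN3-binding member induced by glucocorticoids, rose in MM1R from 7.79, 8.06 and 5.39 CPM to 48.5, 14.9 and 40.9 CPM. In MM1S it rose from 6.32, 15.2 and 13.1 CPM to 63.7, 24.99 and 19.3 CPM. KLF9 gave log2 fold changes of 2.29 ± 0.45 (SE, FDR 0.0116) and 1.64 ± 0.43 (SE, FDR 0.0458), with the smallest RSL3 values again in the passages where KLF2 was lowest. The KLF9 call in MM1S held in 4 of 18 fits that each left out 1 library, was lost without the library labelled MM1R Fer-1+RSL3 of passage 6 (FDR 0.0569) and had a highest FDR of 0.287. KLF5, an activator of growing epithelia, was 1.55 ± 0.35 (SE, FDR 0.00699) over both lines, and KLF15, a metabolic regulator and glucocorticoid target, was −0.78 ± 0.14 (SE, FDR 0.00175). No SP factor passed for RSL3 among the 5 tested, and the one with the smallest p, SP2, was 0.18 ± 0.065 (SE, FDR 0.0767) over both lines.
Among 9 tested corepressors and coactivators, 3 fell over both lines (6.81% of all genes) and 0 rose (8.7%). They were the KLF3 partner CTBP1 at −0.34 ± 0.066 (SE, FDR 0.00297), the SIN3 family corepressor SIN3B at −0.33 ± 0.067 (SE, FDR 0.00370) and the deacetylase HDAC2 at −0.30 ± 0.10 (SE, FDR 0.0424). The HDAC2 call held in 7 of 18 fits that each left out 1 library, with FDR 0.0503 without the library labelled MM1R Fer-1+RSL3 of passage 6. None of the 5 tested ubiquitin ligases passed. In the MEKK-ERK5-MEF2 pathway, which induces KLF2 and KLF4 in endothelium, 1 of 7 tested genes passed, against 15.5% of all genes, the kinase MAP3K3 at −0.32 ± 0.085 (SE, FDR 0.0198), while MEF2C was 0.24 ± 0.10 (SE, FDR 0.120). The MAP3K3 call was lost without the RSL3 library of MM1R passage 4 (FDR 0.0576).
Of the 7 genes of the TGF-beta pathway, which induces KLF10 and KLF11, 3 passed against the same 15.5%. The receptor TGFBR2 fell, at −1.05 ± 0.19 (SE, FDR 0.00206) over both lines. The receptor TGFBR1 rose by 0.64 ± 0.16 (SE, FDR 0.0119) and the inhibitory SMAD7 by 0.29 ± 0.082 (SE, FDR 0.0255) on the log2 scale. The SMAD7 call held in 13 of 18 fits that each left out 1 library (highest FDR 0.0698). It was lost without the RSL3 library of MM1R passage 7 and without that of MM1S passage 16, among others. In the KDM3A-KLF2-IRF4 axis KDM3A was 0.37 ± 0.12 (SE, FDR 0.0496), just past the threshold, called in 6 of 18 such fits and at FDR 0.0584 without the library labelled MM1R Fer-1+RSL3 of passage 6, and IRF4 was −0.26 ± 0.15 (SE, FDR 0.272). Of 7 genes known as KLF targets only 3 had enough counts, CCL5, THBD and MAOB having at most 2 counts in any library, and none of the 3 passed. The one with the smallest p, the cell cycle inhibitor CDKN1A, was 0.61 ± 0.25 (SE, FDR 0.108). With Fer-1+RSL3 against RSL3 no gene of these lists passed in either line or over both.

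The genes whose log2 CPM was most like that of a KLF gene over all 18 libraries were picked by Pearson's r of log2 CPM, centred on each line's mean, among 9849 genes. The values are descriptions over libraries that share treatments and passages. For KLF2 they were ZFAND5 (r = 0.977), the stress-induced phosphatase subunit PPP1R15A (0.969) and JUN (0.965). JUN was also the first for KLF6 (0.982), followed by RHOB (0.981) and RGS2 (0.970), and RGS2 was the third for KLF4 (0.945), after PCDH1 and MAP3K8. For KLF3 they were FOSL2 (0.966), PDE4B (0.965) and RAB30 (0.959). For KLF7 they were PIK3IP1 (0.964), NAP1L2 (0.957) and CHIC2 (0.957). For KLF13 they were CD48 (0.954), NT5DC2 (0.951) and CERK (0.950), and CERK was the first for KLF16 (0.968), ahead of AMD1 (0.960) and CSK (0.947).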

How the data were processed

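RNA of the 18 cultures was extracted with RNeasy Mini kits and sequenced as paired reads on a BGISEQ-500. The authors checked reads with FastQC 0.11.5 and aligned them with STAR 2.7.3a to hg19, and they deposited raw counts per gene for 43735 genes. A second deposited table holds 29553 genes with counts divided by the size factors of DESeq2, a normalized signal used here only in 1 alternative on the log2(value + 1) scale. The counting tool, annotation and strand setting are not given in the sources used here. Groups and passages came from the sample labels.

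All 14281 genes that passed edgeR's filterByExpr (minimum count 10) were fitted together with 6 group means, TMM scaling and the quasi-likelihood test (edgeR 4.0.16, R 4.3.3, two-sided), with Benjamini-Hochberg adjustment over all of them (FDR, threshold 0.05). CPM used TMM-scaled totals. Intervals are 95% intervals of the fit. Contrasts were RSL3 against untreated, Fer-1+RSL3 against RSL3 and against untreated, untreated MM1R against MM1S, and the difference of the RSL3 responses. The test was also run on counts simulated from the means and spread of these data, without passage effects, and no result here rests on that run. The labels give the passage shared by the 3 treatments of a line, and deviations from group means correlated within passages with a median of 0.250 in MM1R (9 pairs of libraries, 0.0338 to 0.516) and 0.416 in MM1S (0.216 to 0.681). Alternatives were other scalings, DESeq2 1.42.0, limma 3.58.1, other filters, the passage block, only the groups compared, and leaving out libraries. Leaving out MM1R passage 7 with MM1S passage 16, and the block without the library labelled MM1R Fer-1+RSL3 of passage 6, were chosen after seeing the data.

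The 9 genes and all lists were chosen with earlier results of these data known. From the lists, every gene that passed for RSL3 and up to 3 more per list with the smallest p could be named, and for each of the 9 genes that passed, the 3 genes most like it. Promoter windows are RefSeq's (GRCh38.p14), and the printed bases were located in hg19 by exact match. Gene positions, exons and 3′ UTRs are from the GENCODE annotation of hg19. 1 marker of another cell type is not reported here.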

Additional observations from a re-analysis of the deposited data

How the results depend on the processing

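Depth was alike in all libraries, and of the 9 genes only KLF4, with 27 to 203 counts per library, had fewer than 200 counts in any library. The 25 called KLF results were set beside 717 recomputed values, of which 651 were counted as unchanged, 66 lost the call and 0 changed direction. The 651 include means of the passage differences, which hold no test and were counted as unchanged when the sign was the same. The cause of a lost call was not tested. The counts that follow are of KLF genes only. DESeq2 passed 38, 6 and 229 of all genes for Fer-1+RSL3 against RSL3 in MM1R, MM1S and both lines, and 1872 between the untreated lines. The block passed 25, 8, 338 and 3438 in the same order. Without MM1R passage 7 and MM1S passage 16, 1467 genes passed for Fer-1+RSL3 against untreated in MM1R. Shares over all genes are not given for the other fits, so those counts are not results about the KLF genes. For RSL3 in MM1S, where 4 of the 9 genes passed, the number was 7 with no filter on low counts, 0 in a fit of only the groups compared and 2 with a log2 fold change over 1 required. For Fer-1+RSL3 against RSL3 in MM1R, where 0 passed, it was 2 with DESeq2, 4 with no filter and 1 with the passage as a replicate block. In MM1S, also 0, it was 1 with DESeq2, 5 with no filter, 1 with the block and 1 with the block and without the library labelled MM1R Fer-1+RSL3 of passage 6. Over both lines, where 1 passed, it was 4 with DESeq2, 6 with no filter, 4 with the block, 2 with the block and without that library, 0 with only the groups compared and 0 with a log2 fold change over 1 required. For Fer-1+RSL3 against untreated it was 7 with no filter, 7 with only the groups compared and 5 without MM1R passage 7 and MM1S passage 16 in MM1R (3 in the main test), and 8 with no filter in MM1S (4). Between the untreated lines (0) it was 3 with the block, 3 with the block and without that library, and 1 each with upper-quartile scaling, DESeq2, no filter, a minimum count of 50 and only the groups compared. Without 1 library at a time the numbers ran from 2 to 7, 1 to 7 and 7 to 8 for RSL3 in MM1R, MM1S and both, from 0 to 1, 0 to 0 and 0 to 3 for Fer-1+RSL3 against RSL3, from 2 to 5 and 2 to 4 for Fer-1+RSL3 against untreated, and from 0 to 1 between the untreated lines.

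Values that changed sign belonged to results that had not passed. Without MM1R passage 7 and MM1S passage 16 the log2 fold change was −0.068 for KLF11, −0.045 for SMAD7 and −0.0055 for KLF1 with RSL3 in MM1S. For Fer-1+RSL3 against RSL3 it was 0.0014 for KLF4 and 0.027 for KLF7 in MM1R, 0.17 for KLF2, 0.11 for KLF4, 0.056 for KLF6 and −0.028 for KLF7 in MM1S, and 0.057 for KLF4 and −0.000176 for KLF7 over both lines. For the line difference it was 0.43 for KLF4 and −0.065 for KLF7. The line difference of KLF4 was 0.016 by limma on the normalized values, KLF7 was −0.040 over both lines with the block and without the library named above, and the mean of its passage differences in MM1R was 0.0032. Without 1 library at a time further signs changed. For RSL3 in MM1R the range was −0.20 to 0.026 for KLF10. For RSL3 in MM1S the range was −0.047 to 0.28 for KLF11, −0.030 to 0.27 for MEF2C, −0.25 to 0.65 for KLF1 and −0.23 to 0.092 for IRF4. For Fer-1+RSL3 against RSL3 in MM1R the range was −0.22 to 0.089 for KLF7 and −0.21 to 0.11 for KLF10. For Fer-1+RSL3 against RSL3 in MM1S the range was −1.56 to 0.021 for KLF2, −1.08 to 0.43 for KLF4, −0.98 to 0.14 for KLF6 and −0.35 to 0.41 for KLF7. For Fer-1+RSL3 against RSL3 over both lines the range was −0.19 to 0.18 for KLF7. For untreated MM1R against MM1S the range was −0.14 to 0.26 for KLF7. For the line difference the range was −0.85 to 1.56 for KLF2, −0.76 to 0.86 for KLF4, −0.035 to 1.48 for KLF6 and −0.19 to 0.34 for KLF7.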
